A study of Chlamydomonas reinhardtii with 12 samples.

Results

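The comparison described here is between the phot mutant and the wild type (WT) of Chlamydomonas reinhardtii, a single-celled green alga, in low light (LL). Its members were chosen by group label: the 3 phot LL libraries and the 3 WT LL libraries, 6 of the 12 libraries of the series. The mutant is the strain named phot, labelled as a knockout of PHOT1 (Cre03.g199000), and the WT is strain CC-125. Both strains were first grown with acetate (TAP medium) at 23 °C. For this growth the study's general methods give 15 µmol of photons per m2 and second, while its RNA sampling section gives 5 for CC-125. The cells were then moved to HSM, a medium without acetate, and kept at an intensity of 5 in the same unit. The LL cells were taken before any high light. The other 6 libraries come from the same strains after 60 min in high light (HL) at an intensity of 300 and serve here only to estimate the spread and for comparison. The phot strain is 1 mutant line and a complemented line was not analysed here, so the loss of PHOT1 and any other difference between the strains cannot be told apart. The study's methods describe the 3 libraries of a group as biological replicates, and the column names of the table do not give replicate numbers, so the libraries are called A, B and C, which are names only.

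Phototropin is a blue light receptor: light absorbed by its flavin-binding domains switches on a kinase in the same protein. In Chlamydomonas it is known for its part in phototaxis, in the sexual cycle and in the light-dependent expression of photoprotection genes. Energy-dependent quenching (qE) is the fastest form of photoprotection, in which excess light energy taken up by photosystem II (PSII) is released as heat, and the carbon concentrating mechanism (CCM) raises the CO2 level around Rubisco inside the pyrenoid, a compartment of the chloroplast. Both are known to be induced in high light, so the LL libraries show the strains before that induction.

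Total counts were between 27136674 and 31290077 in phot LL and between 27146097 and 30355776 in WT LL. Levels are given as CPM, a gene's counts brought to a common library size, scaled with TMM factors, a correction for differences in library composition. The factors were 1.09 to 1.21 in phot LL and 0.66 to 0.86 in WT LL, so the correction separated the strains. The biological coefficient of variation was 0.0725 in phot LL and 0.138 in WT LL. Between pairs of phot LL libraries 41 to 62 genes differed by more than 1 on the log2 scale. WT LL library C stood apart in its group, with 280 and 207 such genes against WT LL libraries A and B, which differed from each other in 78 genes. Correlations of log2 CPM over genes lay between 0.984 and 0.994 within groups and between 0.803 and 0.833 across groups, as a description over the same genes.

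The strains differed across most of the transcriptome before high light was applied. Of 14251 tested genes, 10305 (72.3%) passed an adjusted p of 0.05 (edgeR quasi-likelihood test, Benjamini-Hochberg over all tested genes), with 6309 genes (44.3%) higher and 3996 genes (28%) lower in phot LL. When the difference was tested against a log2 fold change of 1, a 2-fold difference, 2894 genes (20.3%) passed, 1363 (9.56%) higher and 1531 (10.7%) lower. The 1363 higher genes came to 815, 871 and 901 when phot LL A, phot LL C or phot HL C was left out. The 3 phot LL libraries did not overlap the 3 WT LL libraries for 78.5% of genes. These are the shares against which the gene groups below are read.

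The median log2 fold change of all tested genes was 0.22 rather than 0, and it was 0.28 when the upper quartile set the factors, 0.06 with median-of-ratios factors and 0.79 with library totals alone. With any 1 library left out it lay between 0.04 and 0.23, and values of single genes in those fits are not corrected for it. With library totals, 81.4% of the passing genes were higher in phot LL, against 61.2% with TMM factors and 52.2% with median-of-ratios factors, so the margin by which higher genes outnumbered lower ones was a matter of scaling. More than 3 log2 units above the median lay 104 genes, and more than 3 units below it lay 419 genes. Without the filter on low counts they were 181 and 680. The tail of genes strongly lower in phot LL was the longer one on the TMM scale: 346 genes (2.43%) were below -3 and 136 genes (0.954%) above 3, 166 genes were below -4 and 49 above 4, and 44 genes were below -6 and 5 genes above 6. For several gene lists the median is therefore set beside that of all genes. Differences of single genes are given without this shift. A small rise can thus lie close to the median: CRCO, at 0.31, was 0.09 above it, and CUL4, at 0.4, was 0.18 above it.

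Level and direction went together. Genes were put into 5 classes of equal size by mean log2 CPM over all 12 libraries, HL included. The median log2 fold change in LL was 0.43 in the lowest class and -0.15 in the highest. Of the 100 genes with the highest mean, 91% passed as lower in phot LL and 5% as higher, with a median of -0.98. Each library's own 100 largest genes, which need not be these, took 43.4% to 47.6% of its counts in phot LL and 51.9% to 59% in WT LL, with no overlap. Cre06.g272800 and Cre05.g234550, the genes with the largest mean shares in both strains, took 1.38% to 1.88% and 1.44% to 1.59% of the counts in phot LL, and 1.96% to 2.65% and 2.06% to 2.58% in WT LL. Among the 10 genes with the highest mean in phot LL, only RBCS2, encoding a small subunit of Rubisco, had a larger share in every phot LL library than in any WT LL library, with 1.49%, 1.3% and 1.45% of the counts in phot LL, against 0.761%, 0.891% and 0.764% in WT LL. On the TMM scale its difference was 0.22 ± 0.13 (log2, SE) and did not pass (adjusted p = 0.15, edgeR quasi-likelihood), while it passed without WT LL library C at 0.27.

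PHOT1, the gene that the strain lacks, had 4.56, 3.87 and 4.09 CPM in the phot LL libraries, against 308, 316 and 325 CPM in the WT LL libraries. Every library fitted its label, and the level was 75.5-fold lower in phot LL (log2 fold change -6.24 ± 0.12).

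Among the other photoreceptor genes the differences were smaller than for PHOT1, and 4 of 8 rhodopsin-type genes were lower while 1 was higher. Of the 14 photoreceptor genes on the list, PHOT1 included, 4 (28.6%) were higher in phot LL, 6 (42.9%) were lower and 4 did not pass. Over all tested genes 44.3% were higher and 28% lower. The median log2 fold change of the list was -0.19 against 0.22 for all genes. The 4 higher genes came to 2 without phot HL A, B or C, WT HL A, phot LL A or phot LL C. CHR1, a channelrhodopsin, a light-gated ion channel of the eyespot, had 422, 433 and 461 CPM in phot LL, against 1432, 1431 and 1316 CPM in WT LL. The libraries of the strains were far apart, and CHR1 was 3.18-fold lower (log2 -1.67 ± 0.12, adjusted p = 2.07e-08, edgeR quasi-likelihood). It was 1 of 2 photoreceptor genes, with PHOT1, past the test against a 2-fold difference, which 10.7% of all tested genes passed as lower. CHR2, the other channelrhodopsin, had 75.9, 85.6 and 94.7 CPM in phot LL, against 95.1, 86.4 and 90.2 CPM in WT LL. Its groups overlapped and its difference of -0.09 ± 0.11 did not pass, although it passed at -0.34 to -0.27 without any 1 of 5 libraries (phot HL A or B, WT HL A or B, or phot LL C) and lay at 0.49 with library totals. The rhodopsin genes COP5 and COP9 fell by 0.99 and 1.23 on the log2 scale: COP5 had 98.9, 97.8 and 105 CPM in phot LL and 208, 218 and 174 CPM in WT LL. COP7 was at -0.53 (0.02 with library totals), COP8 at 0.43, and COP6 and COP10 did not pass, at -0.02 and -0.17 (0.55 and 0.39 with library totals). COP6 passed without WT HL B (-0.21), and COP10 without phot HL B, WT HL A or WT HL B (-0.35).

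The cryptochromes, flavin-based receptors, and the UV-B receptor differed little. The animal-like cryptochrome aCry was higher by 0.81 ± 0.13 and UVR8 by 0.49 ± 0.09, with no overlap of libraries for either. UVR8 had 34.9, 35.6 and 36.1 CPM in phot LL and 26.6, 25.6 and 23.8 CPM in WT LL. The plant-like cryptochrome pCry, at 0.41 ± 0.15, passed with all libraries but not when any 1 of 9 libraries was left out (lowest 0.2; WT HL library C, phot LL library B and WT LL library B were the exceptions), and COP8 lost its call without any 1 of 6 libraries (phot HL A, B and C, WT HL A, and phot LL A and C, lowest 0.22). CRY-DASH2 was at -0.37 with TMM factors and 0.21 with library totals, and CRY-DASH1 did not pass (-0.22, and 0.36 with library totals).

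The light signalling list holds subunits of a CUL4-based ubiquitin ligase, which marks proteins for degradation, and transcription factors that act with it. Of its 10 genes 6 were higher and 2 lower in phot LL, beside 44.3% and 28% of all tested genes. Their median was 0.32 against 0.22 for all genes. The 6 higher genes came to 3 without phot HL A, B or C, WT HL B, phot LL A or phot LL C. DET1, a subunit of the ligase known to hold back photoprotection genes, had 7.85, 9 and 7.95 CPM in phot LL, against 2.23, 2.18 and 1.58 CPM in WT LL. DET1 was 2.03 ± 0.19 higher (log2), past the test against a 2-fold difference (adjusted p = 8.15e-05, edgeR glmTreat). ROC75, a clock transcription factor that acts on LHCSR3, rose by 1.01 ± 0.13, with 90.6, 107 and 111 CPM in phot LL, against 61.2, 49.2 and 42.2 CPM in WT LL. SPA1, a kinase-domain scaffold of the ligase, rose by 0.61, and NF-YB, a partner of the CONSTANS factor at qE genes, fell by 0.99. The ligase core was nearly level: CUL4 was at 0.4 and its adapter DDB1 at 0.33, calls that were lost when any 1 of 6 or 7 libraries was left out (lowest 0.22 and 0.12; phot HL A, B and C, phot LL A and C, WT HL B and, for DDB1, WT HL A). CRCO, the CONSTANS factor, was at 0.31 ± 0.13 (adjusted p = 0.0449, edgeR quasi-likelihood), a call lost without any 1 of the 12 libraries (0.09 to 0.33).

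The gene with the largest difference on that list was Cre01.g002500, with 101, 121 and 109.9 CPM in phot LL, against 728, 791 and 1172 CPM in WT LL. It was 8.11-fold lower (log2 -3.02 ± 0.17, adjusted p = 1.88e-09, edgeR quasi-likelihood), and -2.81 without WT LL library C, the highest of the WT libraries. The study's list names this identifier COP1 and gives it as the ligase subunit of that name. In Chlamydomonas the symbol COP1 is also used for a chlamyopsin, a retinal-binding protein of the eyespot, and the count table holds identifiers only, so which of the proteins the identifier encodes was not settled here and no role is read from its difference.

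Among the gene lists by role, the antenna of PSII had the highest median log2 fold change, 1.77, close to the 1.75 of the ELIP genes described below. The LHCBM proteins form the major light-harvesting trimers, LHCB4 and LHCB5 are the monomeric proteins that link them to the core, and the function of LHCB7 is less clear. All 12 genes were higher in phot LL, without overlap of libraries, and 8 of the 12 passed the test against a 2-fold difference, against a background of 44.3% and 9.56% of all tested genes. The median log2 fold change of the 12 was 1.77, which was 1.55 above that of all genes, and all 12 stayed above 0 under every scaling tried. Together they took 2.92%, 2.67% and 2.54% of the counts in phot LL, against 0.516%, 0.601% and 0.398% in WT LL.

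LHCBM1, a trimer subunit needed for full qE, had 6699, 6695 and 6055 CPM in phot LL, against 1688, 1952 and 1680.3 CPM in WT LL. Its lowest phot library lay far above its highest WT library, and it rose by 1.87 ± 0.15 (adjusted p = 5.31e-08, edgeR quasi-likelihood). The difference was largest for LHCBM7, with 2472, 2437 and 1980 CPM in phot LL, against 184, 224 and 143 CPM in WT LL, a 12.5-fold change (3.64 ± 0.21). LHCB5, a monomeric antenna protein, followed with 2271, 2462 and 2118 CPM in phot LL, against 229, 256 and 223 CPM in WT LL, a 9.67-fold change (3.27 ± 0.13). LHCBM3, LHCBM6, LHCBM9, LHCBM5 and LHCBM4 rose by 2.05, 1.98, 1.8, 1.74 and 1.65. LHCBM2 was at 1.22, LHCB7 at 0.99, LHCB4 at 0.97 and LHCBM8 at 0.69, and these 4 did not pass the test against a 2-fold difference. The other monomeric gene, LHCB4, rose to 2036, 2209.6 and 1811 CPM in phot LL, against 949, 1059.8 and 1081 CPM in WT LL. Several LHCBM genes are near-identical copies, and reads shared between them could have been split or dropped when they were counted, so single members are less certain than the family.

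**Figure D1:**
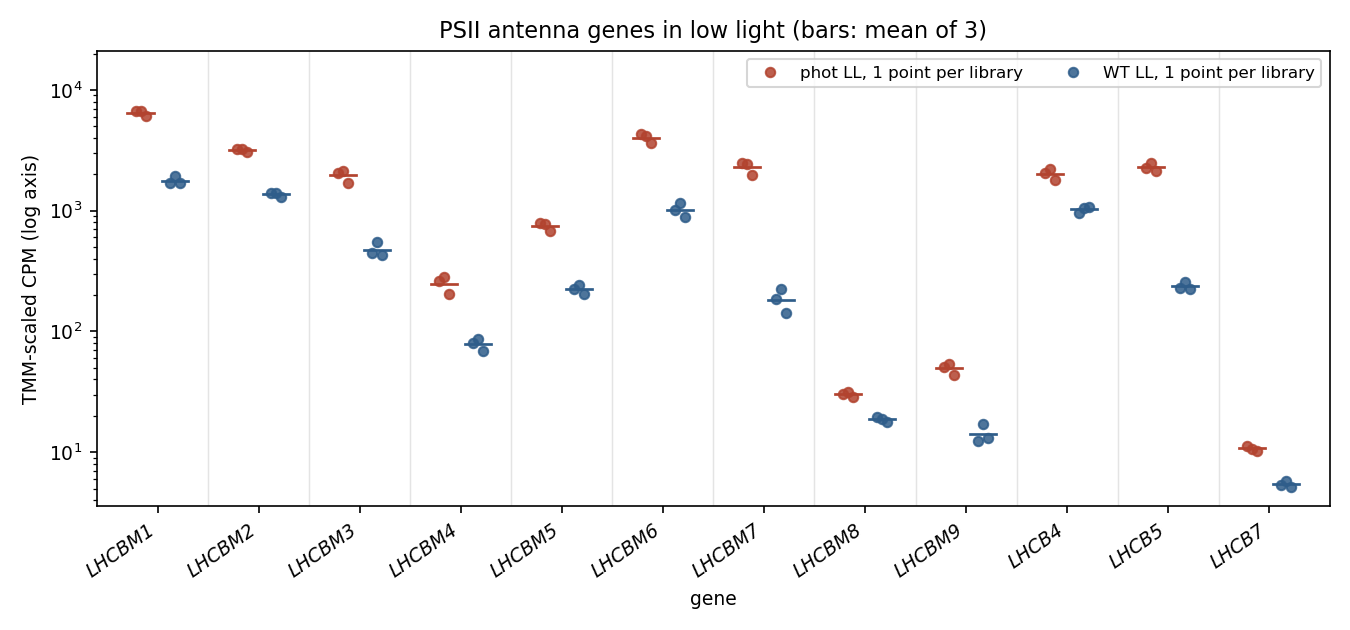
TMM-scaled CPM (log axis) of the 12 PSII antenna genes, with 1 point per library, phot LL left of WT LL, and a bar at the mean of 3. In every gene the 3 phot LL points lie above the 3 WT LL points, with the widest gaps at LHCBM7 and LHCB5 and the narrowest at LHCBM8.

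ELIP genes, which encode early light-induced proteins that bind pigments in the thylakoid under light stress, followed in part. Of the 5 genes 4 were higher and 1 was lower in phot LL, with a median of 1.75, beside 44.3% and 28% of all tested genes. In the test against a 2-fold difference 3 of the 5 passed as higher, as did 9.56% of all tested genes. ELI3 had 895, 952 and 802 CPM in phot LL, against 238, 276 and 239.5 CPM in WT LL, a rise of 1.81 ± 0.14. ELI4 and ELI5 rose by 1.75 and 2.63 at low levels, ELI4 with 8.41, 9.2 and 8.55 CPM in phot LL and 2.68, 2.18 and 3.01 CPM in WT LL. ELI1 was at 0.58, a call lost without any 1 of 5 libraries (phot HL A, B and C, phot LL A and C, lowest 0.4), and ELI2 was at -0.56 with TMM factors and 0.03 with library totals.

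Of the 5 qE effector genes 4 were tested, 2 were lower in phot LL and none was higher, beside 28% and 44.3% of all tested genes. The median was -1.52, which rests in part on PSBS2. PSBS2 had a handful of counts in LL and passed the level filter only through the HL libraries. The distance of the list's median from that of all genes was -1.74, against -1.25 when the filter was set on the LL libraries. LHCSR3 and LHCSR1 are pigment-binding proteins that carry out qE in this alga. LHCSR3.1 had 15.8, 19.7 and 22.3 CPM in phot LL, against 36.8, 44.3 and 37 CPM in WT LL, and fell by 1.03 ± 0.21 (adjusted p = 0.00055, edgeR quasi-likelihood). LHCSR1 had 0.53, 0.708 and 0.508 CPM in phot LL, against 2.36, 2.75 and 2.48 CPM in WT LL, and fell by 2.13 ± 0.58. LHCSR3.2, a near-identical neighbour of LHCSR3.1, was at -0.38 ± 0.2 and did not pass (adjusted p = 0.105, edgeR quasi-likelihood), although its phot libraries lay below its WT libraries. It passed when any 1 of 6 libraries was omitted (phot HL A, B or C, WT HL A or B, or phot LL C; -0.62 to -0.56) and lay at 0.18 with library totals. PSBS1 and PSBS2 encode a PSII protein tied to qE. PSBS1 had 1, 5 and 1 counts in phot LL and 3, 1 and 2 counts in WT LL and did not reach the level filter. PSBS2 had 1, 1 and 1 counts in phot LL and 1, 6 and 2 counts in WT LL, with a log2 ratio of summed counts of -2.16 (exact 95% interval -4.68 to -0.16, counting error only). It did not pass in edgeR (adjusted p = 0.403, quasi-likelihood) and passed in DESeq2 (adjusted p = 0.0453).

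A further list covers the xanthophyll cycle, state transitions and the singlet oxygen response, with PSBR, PSBP2 and the calcium sensor gene CAS. Its genes moved in both directions, and none passed the test against a 2-fold difference, which 20.3% of all tested genes passed. Of 8 genes 3 (37.5%) were higher, 3 (37.5%) were lower and 2 did not pass, beside 44.3% higher and 28% lower over all tested genes. The median was -0.16. SOR1, a transcription factor of the singlet oxygen response, rose by 1.05 ± 0.2, with 127, 135 and 153 CPM in phot LL, against 52.3, 89.6 and 58.2 CPM in WT LL. STT7, the kinase of state transitions, was at -0.58 (-0.02 with library totals), PSBR, a PSII subunit to which LHCSR3 binds, fell by 0.87 and PSBP2 by 0.74. ZEP1, zeaxanthin epoxidase, was at 0.6 and lost its call without phot LL library A (0.4), and SAK1, a phosphoprotein of the singlet oxygen response, at 0.41 lost it without any 1 of 6 libraries (phot HL A, B and C, WT HL A, and phot LL A and C, lowest 0.21).

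Of 10 listed genes for photosystem subunits outside the antenna and for electron carriers 7 (70%) were higher and 3 (30%) lower, with a median of 0.6. Over all tested genes 44.3% were higher and 28% lower, so the share of lower genes was near that of all genes. None of the 10 passed the test against a 2-fold difference, which 9.56% of all tested genes passed as higher and 10.7% as lower. PSBQ, an extrinsic protein of the oxygen-evolving complex, had 2096, 2205 and 1899 CPM in phot LL, against 882, 983 and 1128 CPM in WT LL, a rise of 1.05 ± 0.17. The photosystem I subunits PSAH and PSAG rose by 0.66 and 0.53, and PSAK was at -0.55 with overlapping libraries (0.04 with library totals). PSBP4 rose by 1.11, TEF9 by 0.87 and ULP1 by 0.74, while PSBP3, at 0.51, lost its call without phot HL C, phot LL A or phot LL C (0.33 to 0.37). FDX1, the photosynthetic ferredoxin, fell to 4729.9, 5128 and 4877 CPM in phot LL, against 7458, 8954 and 11277 CPM in WT LL, a difference of -0.91 ± 0.15. CYC6, a copper-responsive cytochrome that counts among the 3 lower genes, had 2, 0 and 2 counts in phot LL and 4, 6 and 3 counts in WT LL. It was under 1 CPM in every LL library and passed the level filter only through the HL libraries (28.8 to 114.6 CPM). Its call thus rests on a handful of reads, and it was lost without phot LL B or any of the WT LL libraries (-2.3 to -1.7).

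**Figure D2:**
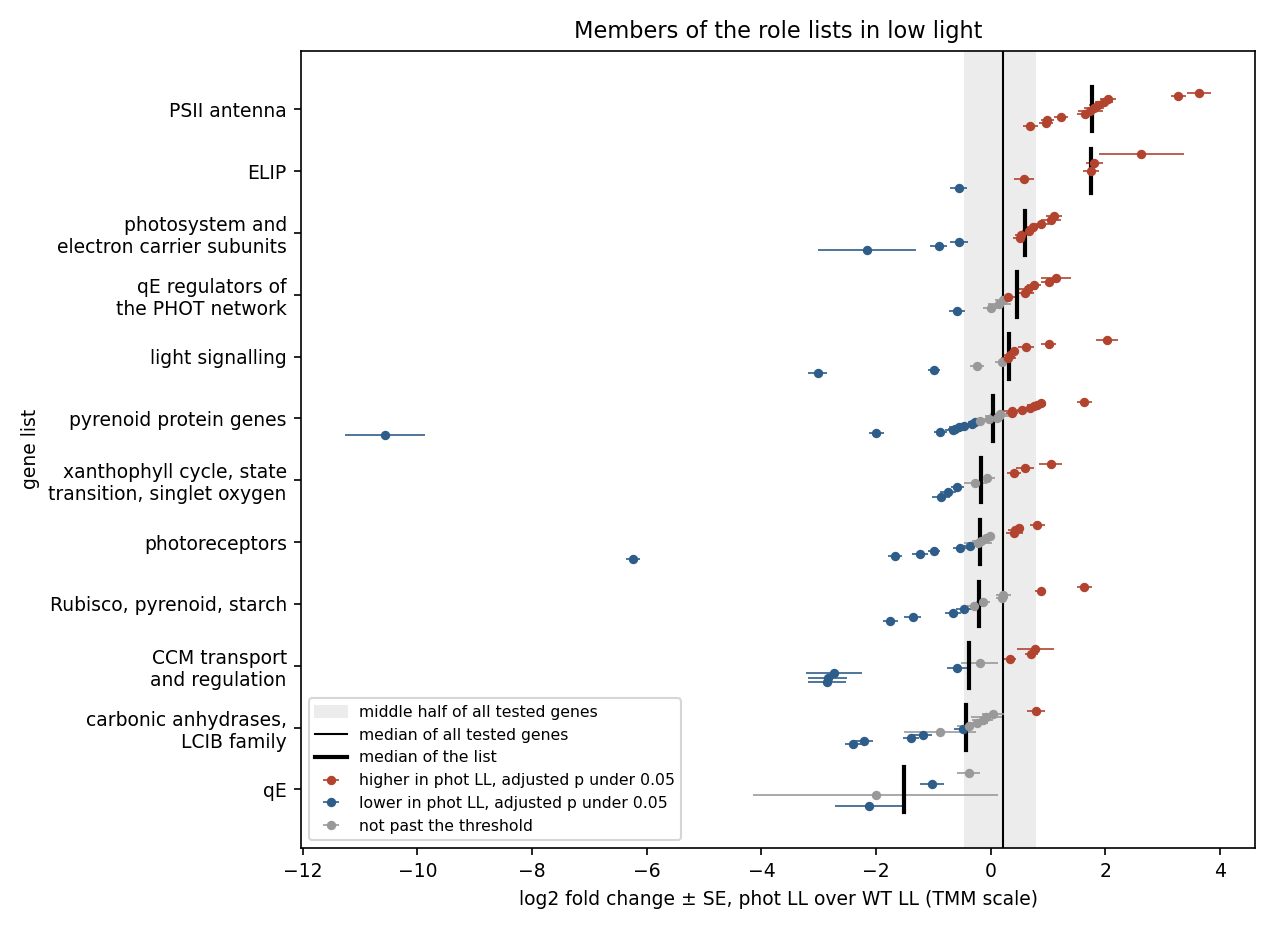
Log2 fold change of phot LL over WT LL (± SE) for each tested member of 12 gene lists, coloured by direction where the adjusted p was under 0.05 and grey otherwise, with the median of each list as a short bar and the median of all genes (0.22) as a line inside a shaded band from their 25th to their 75th percentile (-0.45 to 0.77). The PSII antenna (median 1.77) and ELIP (1.75) lie to the right, and the carbonic anhydrase and CCM transport lists (-0.43 and -0.38) to the left. The qE median (-1.52) rests in part on PSBS2, the grey point with the long error bar.

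Genes of the CCM were divided, and the deeper changes were on the lower side in phot LL, among them those of HLA3, LCI1, CCP2 and several carbonic anhydrases. Over the whole CCM list of 73 genes, 72 were tested, 31 (43.1%) were lower and 21 (29.2%) higher, against 28% and 44.3% of all tested genes. The list's median was -0.18, 0.4 below that of all genes. In the test against a 2-fold difference 11 of the 72 passed as lower and 2 as higher. Of all tested genes 10.7% passed that test as lower and 9.56% as higher. With library totals the counts turned round, 16 lower and 34 higher. The list was compiled by the study.

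Of 9 genes for inorganic carbon transport and its regulation 8 were tested, 4 (50%) were lower and 3 (37.5%) higher. The shares of all tested genes were 28% lower and 44.3% higher. The list's median was -0.38 against 0.22 for all genes. The 3 higher genes came to 1 without phot HL A, B or C, phot LL A or phot LL C. HLA3, an ABC transporter that brings bicarbonate across the plasma membrane, had 53, 47.7 and 60.4 CPM in phot LL, against 463, 507 and 180.2 CPM in WT LL. The WT libraries were spread over a wide range, but the lowest of them was still well above the highest phot library, and HLA3 fell by 2.84 ± 0.34 (adjusted p = 3.2e-06, edgeR quasi-likelihood) and by 3.21 without WT LL library C. LCI1, a channel of the plasma membrane, had 11.5, 6.1 and 8.55 CPM in phot LL, against 71, 72.8 and 45.5 CPM in WT LL, and it fell by 2.85 ± 0.33. CCP2, a chloroplast envelope carrier protein, had 3.21, 2.26 and 4.04 CPM in phot LL, against 22.6, 26.5 and 14.6 CPM in WT LL, and it fell by 2.74 ± 0.49. In all 3 genes WT LL library C was the lowest WT library. LCIA, the bicarbonate channel of the chloroplast envelope, did not share the pattern: it had 64.6, 56.4 and 76.9 CPM in phot LL and 82.5, 92.9 and 49.9 CPM in WT LL, with overlap and a difference of -0.19 ± 0.32. RHP1, a putative CO2 channel, rose by 0.71 ± 0.11, LCI11 was at -0.58 (-0.02 with library totals), and RHP2 did not reach the level filter.

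The regulators of the CCM did not fall with these genes. CIA5, the master regulator of the low CO2 response, had 189, 202 and 212 CPM in phot LL, against 157, 169 and 148 CPM in WT LL (0.34 ± 0.1), a call lost without any 1 of 7 libraries (phot HL A, B and C, WT HL A and B, and phot LL A and C, lowest 0.12). LCR1, a MYB factor that acts on LCI1 among other genes, was at 0.78 ± 0.33, higher in phot LL, with an adjusted p of 0.0442 (edgeR quasi-likelihood) that was lost without any 1 of 10 libraries (all but WT HL A and B, 0.55 to 0.89). The phot libraries lay above the WT libraries for both genes.

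Of 12 genes for carbonic anhydrases and LCIB-type proteins, which interconvert CO2 and bicarbonate, 5 were lower, 1 was higher and 6 did not pass, with a median of -0.43. Their shares, 41.7% lower and 8.33% higher, stand beside 28% and 44.3% of all tested genes. CAH6 had 77.3, 72.6 and 79.8 CPM in phot LL, against 332, 357 and 524 CPM in WT LL, and it fell by 2.4 ± 0.15. CAH2, a periplasmic form, had 6.13, 6.33 and 6.04 CPM in phot LL, against 25.5, 29.9 and 29.8 CPM in WT LL, and it fell by 2.21 ± 0.15. CAH6, CAH2 and CAH8 (-1.39) passed the test against a 2-fold difference, which 10.7% of all tested genes passed as lower. CAH4 fell by 1.19, CAH3, the form of the thylakoid lumen, was at -0.48 (0.1 with library totals), and CAH9 rose by 0.79. CAH4 and CAH5 are near-identical neighbours whose reads may not be separable, and CAH5 did not pass (-0.38), although it did when any 1 of 8 libraries was omitted (-0.64 to -0.56; all but WT HL C, phot LL B, WT LL A and WT LL B). LCIB and LCIC, which form a complex around the pyrenoid, overlapped between the strains: LCIB had 1325, 1351 and 1742 CPM in phot LL and 1732, 1699.5 and 1798 CPM in WT LL (-0.24 ± 0.2). LCIB passed without WT HL A, WT HL B or phot LL C (-0.56 to -0.43), and lay at 0.34 with library totals.

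Of 10 genes for Rubisco, the pyrenoid and starch 2 were higher, 4 were lower and 4 did not pass. Over all tested genes 44.3% were higher and 28% lower. The median of the 10 was -0.21. EPYC1, the linker protein that gathers Rubisco, had 1564, 1506 and 1651 CPM in phot LL, against 5560.5, 5214 and 5135 CPM in WT LL. It fell by 1.75 ± 0.13 (adjusted p = 3.7e-08, edgeR quasi-likelihood). RCA1, Rubisco activase, fell by 1.36 ± 0.15, with 1286, 1617 and 1614 CPM in phot LL, against 3423, 3617 and 4576 CPM in WT LL. The Rubisco small subunit genes, near-identical copies, did not pass with all libraries: RBCS2 was at 0.22, and RBCS1 was at -0.13, passed at -0.31 without any 1 of 4 HL libraries (phot HL A or B, WT HL A or B) and lay at 0.46 with library totals. Among the starch genes SBE1, a branching enzyme, rose by 1.63 with 39.8, 38.4 and 40.1 CPM in phot LL, against 12.8, 15 and 10.3 CPM in WT LL, SBE4 rose by 0.87, SBE3 did not pass, and STA2, granule-bound starch synthase, was at -0.47 (0.11 with library totals).

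Among 22 genes whose proteins were found in the pyrenoid, SBE1 and SBE4 included, 8 (36.4%) were higher and 9 (40.9%) lower. The shares of all tested genes were 44.3% higher and 28% lower. The list's median was 0.04, which is below that of all genes. With library totals 14 were higher and 3 lower. Cre13.g573250 fell by 2 ± 0.13, with 608, 705 and 683 CPM in phot LL, against 2340.5, 2489 and 3140.1 CPM in WT LL. Cre10.g452250 was nearly absent from the mutant, with 3, 3 and 12 counts in phot LL, while the WT LL libraries held 416, 232 and 186 CPM. The log2 ratio of its summed counts was -10.62, with an exact 95% interval of -11.37 to -9.96 that covers counting error only. Apart from these and SBE1, no gene on this list passed the test against a 2-fold difference, which 20.3% of all tested genes passed.

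**Figure D3:**
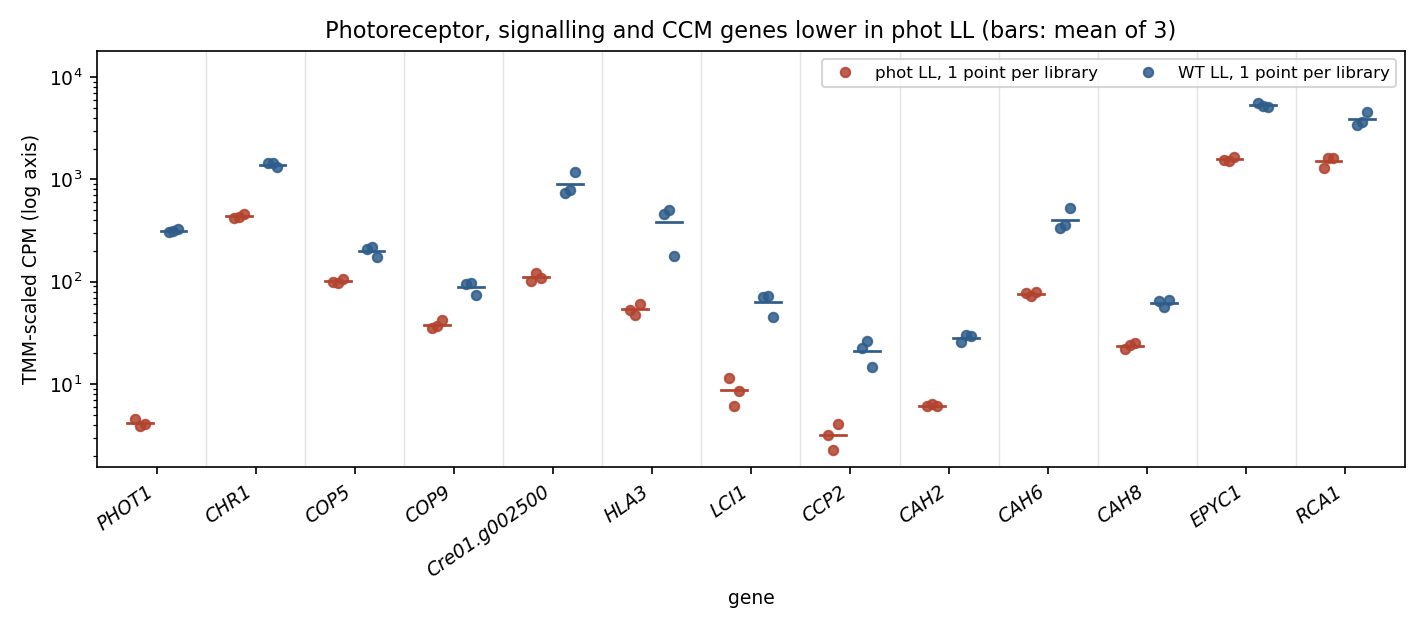
TMM-scaled CPM (log axis) of 13 photoreceptor, signalling and CCM genes that passed as lower in phot LL, with 1 point per library, phot LL left of WT LL, and a bar at the mean of 3. The groups are apart in every gene, most widely in PHOT1 (4.18 against 316 CPM on average), and the WT LL points of HLA3, LCI1 and CCP2 are spread, with library C lowest.

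Of the 10 genes listed as regulators of qE genes in the study's PHOT network, which include CRCO, ROC75 and ZEP1, 6 were higher, 1 was lower and 3 did not pass in phot LL. Their median was 0.46, and over all tested genes 44.3% were higher and 28% lower. None of the 10 passed the test against a 2-fold difference, which 20.3% of all tested genes passed. Cre16.g676421 rose by 1.14 ± 0.26, with 335, 325 and 339 CPM in phot LL, against 178, 138 and 135 CPM in WT LL. QER5 rose by 0.76 and LCI8, listed as an N-acetyltransferase, by 0.65. QER7 was the only one lower, at -0.58 ± 0.14, with 4.51, 5.02 and 5.38 CPM in phot LL and 7.4, 8.13 and 6.7 CPM in WT LL, and it lay at -0.02 with library totals. QER1 and QER2 overlapped between the strains, at 0.15 and 0 (QER2 was at 0.58 with library totals). That network was built on expression of the phot mutant, so these differences are a description and not independent evidence.

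Over all 407 listed transcription factors, 383 were tested, 201 (52.5%) were higher and 74 (19.3%) lower in phot LL, with a median of 0.35, which is 0.13 above that of all genes. The families were not uniform. In the zinc finger family C3H 14 of 23 tested genes were higher and 1 was lower, in GNAT, a family of acetyltransferases, 15 of 26 were higher and 1 lower, and in SET, a family of histone methyltransferases, 10 of 14 were higher and 1 lower. The bZIP family ran the other way, with 7 of 24 higher and 11 lower and a median of -0.25, yet it also held the transcription factor with the largest rise. These shares stand beside 44.3% higher and 28% lower over all genes, and families were not tested against each other.

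That factor, Cre12.g557300, had 57.8, 56.4 and 62 CPM in phot LL, against 2.5, 2.25 and 1.32 CPM in WT LL, and rose by 4.84 ± 0.19. Among factors with a mean of at least 3 log2 CPM and no overlap of libraries, the SBP family held both the second largest rise, Cre02.g085150 at 2.33, and the deepest fall, Cre01.g033900, with 1.43, 1.45 and 1.17 CPM in phot LL, against 61.1, 50.5 and 47 CPM in WT LL (-5.29 ± 0.2). CPL20, of the PLATZ family, rose by 2.25, Cre09.g393284 (VARL) by 2.07, Cre03.g212977 (TAZ) by 1.93 and GSP1 by 1.82. GSP1 is the homeodomain protein that acts in plus gametes at mating, and it had 93.5, 89.1 and 74.1 CPM in phot LL, against 30.9, 25.1 and 16.5 CPM in WT LL. On the lower side stood Cre10.g436800 (TIG) at -4.18, Cre16.g667450 (TUB) at -3.68, Cre06.g253250 (MADS) at -3.4, Cre14.g631750 (bZIP) at -2.71 and Cre06.g291500 (RWP-RK/Nin-like) at -2.65. All 12 factors were chosen as the largest under that limit on level and overlap, so their size is a description, and factors of lower mean level with larger differences are not named.

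Among genes with a mean of at least 3 log2 CPM and no overlap of libraries, those with the largest differences carry identifiers only, apart from the bZIP factor Cre12.g557300, with no role in the sources used here. The largest rise was in Cre07.g356450, with 355, 376 and 402 CPM in phot LL, against 3.66, 2.64 and 2.43 CPM in WT LL (129.5-fold, log2 7.02 ± 0.2). Cre06.g292249 (6.69), Cre06.g287400 (5.6), Cre09.g399250 (5.05) and Cre18.g750047 (4.85) came next under this limit, followed by the bZIP gene, Cre12.g512300 (4.8), Cre16.g652300 (4.76), Cre13.g572600 (4.53), Cre10.g460150 (4.27), Cre01.g031500 (4.19) and Cre13.g574400 (4.17). Cre12.g512300 had 643, 570.5 and 616 CPM in phot LL, against 27.5, 18.3 and 19.7 CPM in WT LL. All 12 of these genes held counts in every WT LL library.

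The falls were deeper than the rises. Cre24.g755997 had 2, 6 and 6 counts in phot LL, where the WT LL libraries held 738.5, 333 and 329 CPM, a log2 ratio of summed counts of -11.71 with an exact 95% interval for counting error of -12.58 to -10.97. Cre09.g405100 had 0.398, 0.337 and 1.05 CPM in phot LL, against 924, 539 and 336 CPM in WT LL (-9.97 ± 0.47). In both genes WT LL library A was the highest of the WT libraries, and without it the differences were -11.17 and -9.51. Cre18.g748297 (-9.32), Cre09.g398450 (-9.24) and Cre09.g398400 (-8.91) were under 1 CPM in every phot LL library, and so was Cre14.g615550 (-6.94). Others held more counts in the mutant: Cre07.g337100 had 7.8, 7.45 and 6.96 CPM in phot LL, against 1144, 1317 and 1880.4 CPM in WT LL (-7.61 ± 0.22), and Cre06.g282800 had 17, 22.2 and 31.4 CPM in phot LL, against 2317, 2399 and 3421 CPM in WT LL (-6.85 ± 0.29). Cre17.g702900, Cre18.g749547, Cre14.g613800 and Cre17.g714800 were at -7.91, -7.47, -7.39 and -6.87.

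**Figure D4:**
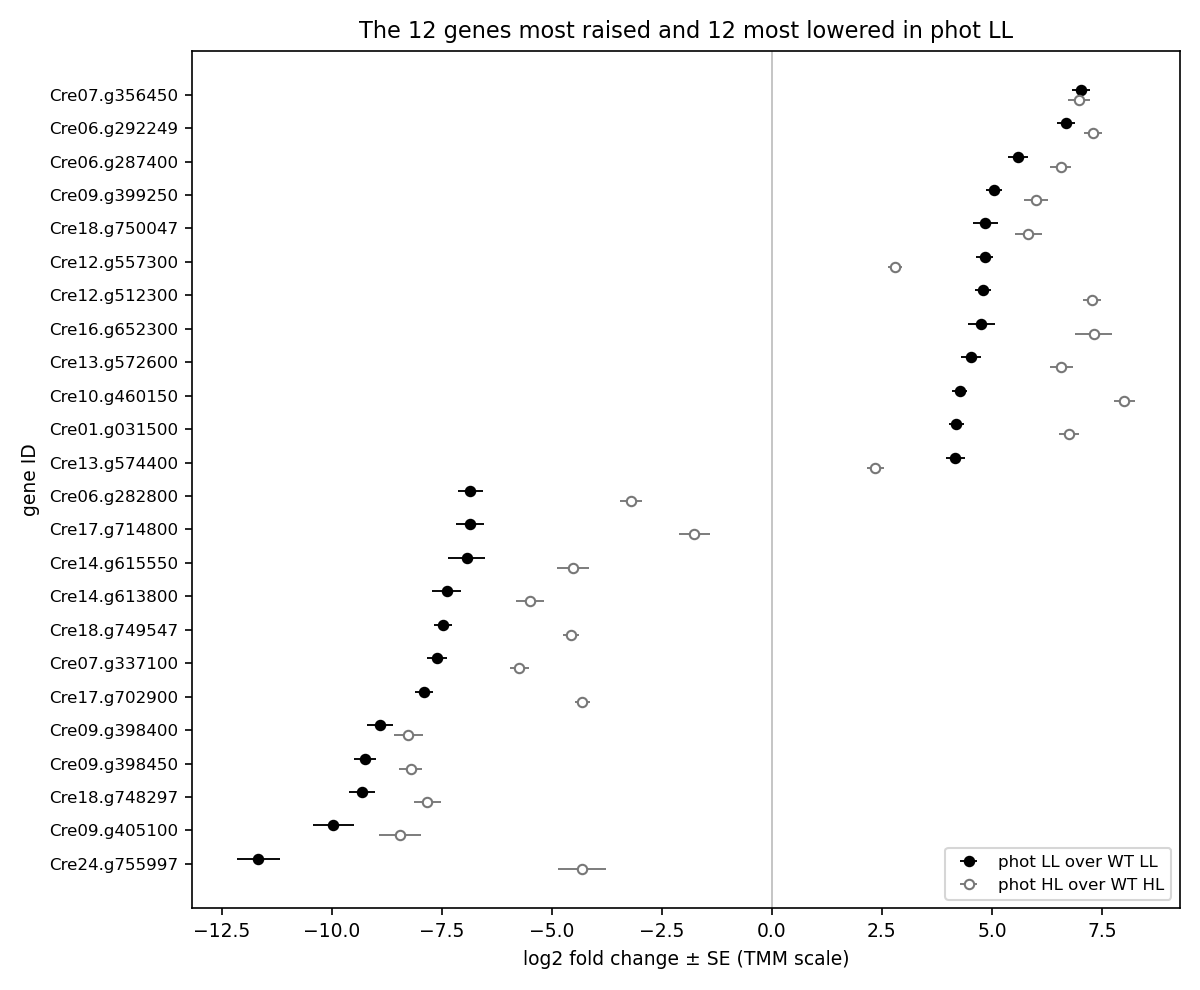
Log2 fold change (± SE) of the 12 genes that rose most (upper rows) and the 12 that fell most (lower rows) in phot LL, with phot LL over WT LL as filled points and phot HL over WT HL as open points. All 24 genes keep their side of 0 in both lights; the genes were chosen by their LL values, so a smaller difference in HL can follow from the choice alone.

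Genes past a log2 fold change of 3 were spread over all 17 chromosomes, from 2.38% of the tested genes on chromosome 1 to 4.82% on chromosome 4. In the gene order of the RefSeq annotation of the v5.5 assembly there were 32 runs of neighbouring tested genes past 3 in the same direction, 28 of them lower and 4 higher in phot LL. Of these, 2 runs held 3 genes and 30 held 2. On chromosome 9, Cre09.g398500, Cre09.g398450 and Cre09.g398400 lay side by side and were at -10.79, -9.24 and -8.91. Cre09.g398500 had 2, 3 and 4 counts in phot LL, against 215, 144 and 138 CPM in WT LL (log2 ratio of summed counts -10.86, exact 95% counting interval -11.99 to -9.93). On chromosome 16, Cre16.g670755 and Cre16.g670756 were at -3.55 and -3.78 beside the TUB factor Cre16.g667450. Neighbours can overlap or share copies, which was not checked.

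Across lights the strains mostly kept the direction of their difference. Of the 10305 genes past the threshold in LL, 8198 had the same sign in HL. Of the 7936 genes past it in both lights, 1144 had opposite signs together with a difference between the lights that passed the interaction test, which 51.8% of all genes passed. The antenna difference was larger in HL for 11 of the 12 genes: the median of the 12 genes was 1.77 in LL and 5.52 in HL, and the interaction passed for each of the 12 genes. LHCB7 was the exception in direction, at 0.99 in LL and -0.39 in HL. EPYC1 was lower in phot LL (-1.75) and higher in phot HL (0.92), and so were LCI1 (-2.85 and 2.3) and PSBR (-0.87 and 1.23). CHR1, DET1 and HLA3 were at -1.67, 2.03 and -2.84 in LL and at -1.1, -0.14 and -0.56 in HL, while Cre01.g002500 was nearly as low in HL (-2.76) as in LL (-3.02).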

How the data were processed

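Messenger RNA of 12 C. reinhardtii cultures, 3 for each combination of strain (phot, WT) and light (HL, LL), was sequenced as stranded TruSeq libraries. The authors mapped the reads with STAR 2.5.3a (per the submitters' processing notes) to the Phytozome assembly version 5 and counted reads per gene with HTSeq-count in reverse-stranded mode, whose version is not given in the sources used here. The deposited values are raw counts, with no normalization, for 17741 genes, of which 719 had no count. All 12 columns were used and 0 columns of per-sample values were left out. Reads that fit several near-identical genes may be missing from the counts of each, and the counts hold no transcript lengths, so a rank or class by CPM or by share of counts orders genes by counts and not by transcript number.

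Genes with more than 1 CPM in at least 4 of the 12 libraries were kept (14251). Counts were scaled with TMM factors and fitted in edgeR 4.0.16 (R 4.3.3) with 1 coefficient per group, and phot LL minus WT LL was tested with the quasi-likelihood F test, with glmTreat against a log2 fold change of 1, and as an interaction with the HL difference. P-values were adjusted over all tested genes (Benjamini-Hochberg) at a threshold of 0.05, and they measure only the spread between these cultures. Errors of log2 fold changes are approximate standard errors, the absolute log2 fold change divided by the square root of the F statistic. Log2 CPM values, used for correlations, level classes and the limit on level for named genes, were computed with a prior count of 2. Fitted log2 fold changes were taken with the default settings of edgeR. Ratios of summed counts carry exact 95% intervals, which cover counting error only, and 3 counts were taken as the floor, equal to 0.0796 to 0.158 CPM in the LL libraries. The steps were tested on simulated data.

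The text names PHOT1, the members of the role lists, the 12 largest rises and the 12 largest falls among passing genes with a mean of at least 3 log2 CPM and no overlap, the 6 transcription factors of each direction by the same rule, genes with the highest mean CPM, and the longest runs of neighbours. The lists come from the study's supplement and textbook roles. The members and lists were chosen with earlier results of these data known. Gene order was taken from the RefSeq annotation of the Chlamydomonas_reinhardtii_v5.5 assembly (17738 of 17741 identifiers matched). Alternatives were other scalings, filters, DESeq2 1.42.0, limma 3.58.1 (voom), the 6 LL libraries alone, and leaving out each library.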

Additional observations from a re-analysis of the deposited data

Results flagged for a closer look

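The log2 difference between the strains was compared between the lights (LL minus HL, edgeR interaction test, Benjamini-Hochberg over all genes) for 51 genes: PHOT1, the antenna genes, the 24 genes with the largest changes, and the listed genes that passed in both lights with opposite signs. Of these 45 passed. Since most of them were chosen by their values in 1 or both lights, this number is a description and nothing is read from it.

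In the antenna the strain difference was smaller in LL than in HL for LHCBM1 (-1.99), LHCBM2 (-4.32), LHCBM3 (-3.64), LHCBM4 (-4.5), LHCBM5 (-2.47), LHCBM6 (-3.85), LHCBM7 (-3.18), LHCBM8 (-2.75), LHCBM9 (-3.69), LHCB4 (-2.62) and LHCB5 (-2.74). LHCB7 was the exception, at 1.38. All 3 phot libraries lay above all 3 WT libraries in LL for each of these genes.

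Among listed genes with opposite signs, the strain difference in LL minus that in HL was -5.15 for the channel gene LCI1, -2.67 for the pyrenoid linker gene EPYC1, -2.1 for PSBR, -2.25 for PSAK and -1.23 for the rhodopsin gene COP7. For these 5 genes phot was lower in LL and higher in HL. CYC6 had the same order (-3.42), on few counts in LL. Genes that were higher in phot in LL and lower in HL were TEF9 (3.56), ELI1 (1.66), PSBP3 (1.51), LCI8 (1.48), aCry (1.43), SPA1 (1.22), TGL18 (1.18) and QER5 (1.09). The LL calls of ELI1, PSBP3 and TGL18 did not hold in every fit with 1 library left out, and those of COP7 and PSAK lost their sign with library totals.

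PHOT1 itself differed by -0.5 between the lights. Among the genes that rose most, the difference was -3.74 for Cre10.g460150, -2.55 for both Cre16.g652300 and Cre01.g031500, -2.46 for Cre12.g512300, -2.05 for Cre13.g572600, -0.98 for Cre18.g750047 and -0.96 for Cre06.g287400. It was above 0 for Cre12.g557300 (2.04) and Cre13.g574400 (1.82). Among the genes that fell most it was -7.35 for Cre24.g755997, -5.11 for Cre17.g714800, -3.64 for Cre06.g282800, -3.6 for Cre17.g702900, -2.91 for Cre18.g749547, -2.42 for Cre14.g615550, -1.9 for Cre14.g613800, -1.87 for Cre07.g337100 and -1.49 for Cre18.g748297. For a gene that rose, a value below 0 means that the strain difference was larger in HL. For a gene that fell, it means that the difference was smaller in HL. The genes were chosen by their LL values, so where the difference was smaller in HL this can follow from the choice alone. What underlies these differences was not tested.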

How the results depend on the processing

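Of 169 named genes with a fit, 149 had no direction that passed in 1 fit reversed in another, and 68 kept their call in every alternative. No paired analysis was possible because the column names carry no replicate numbers. The other 20 genes, each past the threshold with TMM factors or with library totals, turned sign with library totals, where the median of all genes was 0.79: CRY-DASH2 (0.21), CHR2 (0.49), COP6 (0.55), COP7 (0.02), COP10 (0.39), NF-YC (0.34), ELI2 (0.03), CAS (0.52), CAH3 (0.1), LCIC (0.43), RBCS1 (0.46), STA2 (0.11), PSAK (0.04), QER2 (0.58), Cre09.g416850 (0), Cre06.g261750 (0.1), Cre02.g088950 (0.42), Cre06.g249750 (0.56), Cre09.g394621 (0.28) and FTT1 (0.26). COP6, CAS, QER2 and Cre06.g249750, which did not pass with TMM factors, also crossed 0 in other fits without passing.

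With library totals 9580 genes were higher and 2190 lower (81.4% higher), and 4478 passed a log2 fold change of 1 (3621 higher, 857 lower). Higher were then 7 photoreceptor, 3 carbonic anhydrase, 5 Rubisco and starch, 14 pyrenoid and 34 CCM genes, and lower were 1 xanthophyll, 2 Rubisco and starch, 1 photosystem, 3 pyrenoid, 9 photoprotection, 16 CCM and 38 transcription factor genes. Median-of-ratios factors gave 3 higher light signalling genes and 1 higher CCM transport gene. With no filter 50.6% of passing genes were higher, 181 and 680 genes lay over 3 above and below the median, the qE median lay -1.18 from that of all genes, and 1 CCM transport gene was higher. With the filter on the 6 LL libraries the qE distance was -1.25. The 6 LL libraries alone gave 3 higher light signalling and 8 lower carbonic anhydrase genes. DESeq2 gave 721 genes past a log2 fold change of 1 as higher, 4 lower qE genes and 1 higher CCM transport gene.

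Against a log2 fold change of 1, 2894 genes passed, 1363 higher (47.1%) and 1531 lower. The higher and lower genes were 9.56% and 10.7% of all tested genes. By list, 0 photoreceptor genes were higher and 2 lower, 1 light signalling gene was higher, 0 qE genes were lower, 0 xanthophyll and 0 photosystem genes passed either way, 0 CCM transport genes and 0 qE regulators were higher, 3 carbonic anhydrase and 2 Rubisco and starch genes were lower, and pyrenoid genes were 1 higher and 2 lower, photoprotection genes 12 and 3, CCM genes 2 and 11, and transcription factors 38 and 31.

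With 1 library left out, the share of passing genes that were higher was 50.1% to 61.2%, genes past a log2 fold change of 1 as higher were 815 to 1327, and higher genes were 2 to 4 for photoreceptors, 3 to 5 for light signalling, 1 to 3 for xanthophyll and 1 to 2 for CCM transport, and the qE distance was -1.85 to -1.29. The cause of these shifts was not tested. Depth limits PSBS1, PSBS2, RHP2 and CYC6.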

Other observations

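In the TRAF family of listed regulators 16 of 27 tested genes were higher in phot LL and 3 were lower, in SNF2, a family of chromatin remodellers, 9 of 13 were higher and 1 lower, and in PHD, a family of zinc finger proteins, 8 of 10 were higher and 1 lower, beside 44.3% and 28% of all tested genes. GATA factors were divided, with 7 of 15 higher and 6 lower and a median of -0.16. ACP2, an acyl carrier protein gene among the genes with the highest mean, had 7088, 10566 and 7376 CPM in phot LL, against 15487, 11422 and 19348.5 CPM in WT LL, with no overlap and a difference of -0.89 ± 0.2.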
